A study of Homo sapiens with 9 samples.

Results

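The genes described are 46 interferon-stimulated and antigen presentation genes, taken as every row of the deposited count table whose Ensembl gene ID maps to a name on a fixed list of symbols. All 46 were matched to 1 gene ID each, out of 57757 gene IDs in the table. They were measured by RNA sequencing in NLF cells, an established human neuroblastoma line of neural crest origin labelled wild type. Of the 3 groups, siNTC received a non-targeting small interfering RNA (siRNA), siTBX2 an siRNA against the T-box transcription factor gene TBX2, and siTBX2-AS1 an siRNA against the long noncoding RNA transcribed antisense to it. All cells had 48 hours of siRNA, no group was treated with interferon or left without siRNA, and n = 3 biological replicates in each group (9 libraries). The labels do not say whether replicates were separate cultures, so the p-values measure the spread between these samples.

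Interferons are secreted cytokines that cells release after sensing foreign nucleic acid. Type I interferons bind the receptor IFNAR1 and IFNAR2, the kinases JAK1 and TYK2 phosphorylate STAT2, and STAT2 and IRF9 are parts of the factor ISGF3. ISGF3 binds interferon-stimulated response elements (ISREs) in promoters and raises the transcription of interferon-stimulated genes, many of which block steps of virus replication. Antigen presentation by major histocompatibility complex (MHC) class I uses several of these genes: peptides cut by the proteasome are carried by the transporter TAP into the endoplasmic reticulum and loaded on HLA heavy chains bound to B2M. Neuroblastoma is known for a low surface level of MHC class I. Double-stranded RNA brought into a cell can itself engage RNA sensors, so the levels in siNTC are those of cells that also received an siRNA.

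Depth ranged from 31894280 to 51434090 counts per library, so that 3 counts, the limit that a count of 0 allows, correspond to 0.0579 to 0.0931 CPM (counts over the library's TMM-scaled total). The targets were read first. TBX2 stood at 260 ± 14.1 CPM (mean ± SD) in siNTC and at 44.9% of that level in siTBX2, and TBX2-AS1 at 36.3 ± 2.01 CPM in siNTC and at 10.4% of it in siTBX2-AS1. Replicate 3 of siTBX2-AS1 had less TBX2-AS1 (0.714 CPM) than replicates 1 and 2 (4.71 and 5.87 CPM), and the lowest depth. TBX2 averaged 209 ± 30.5 CPM in siTBX2-AS1, a log2 fold change of -0.32 that was not called (adjusted p = 0.172). As a check of the labelled cell type, PHOX2A, HAND2 and ISL1 averaged 34.1, 46.9 and 13.2 FPKM (fragments scaled to transcript length and library size) over the 9 libraries, whereas TH was at 0 and DBH at 0.171. Of 8 leukocyte markers CD3E and LYZ were at 0 and PTPRC at 0.00321 FPKM, and the highest were CD14 at 0.263 and CD68 at 0.779. Of 5 epithelium markers KRT5 was at 0 and the highest was KRT18 at 3.08, and of the fibroblast and endothelium markers COL1A1, DCN and PDGFRB averaged 14.5, 10.9 and 10.5 FPKM while CDH5 and KDR were near 0.

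The sequence through which ISGF3 acts is shown first. The rule that chose the members did not use promoter sequence, but the list is mostly of interferon-stimulated genes. A high share of matches could therefore be foreseen and is no result about these cells. RefSeq promoters on GRCh38.p14, running from 250 bases before to 50 bases after each start site, were in the table for 37 of the 46 members. An ISRE-like pattern, GAAANNGAAA on either strand with N for any base, was found in 25 of the 37 (67.6%), against 3.57% of all 35116 promoters in the table. The first share counts genes and the second promoters, of which a gene can have several. Counted by gene, the pattern was found for 23 of 31 tested members and for 3.81% of 11642 tested genes. The windows below belong to the 6 tested members with a match that had the smallest p in a knockdown, written along the gene's strand with the 10 matching bases in capitals. A match describes the letters of the promoter and is no evidence of binding in these cells.
TAP1: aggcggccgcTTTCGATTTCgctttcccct
SAMD9: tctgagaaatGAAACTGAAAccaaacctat
IFI44L: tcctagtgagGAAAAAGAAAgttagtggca
ISG15: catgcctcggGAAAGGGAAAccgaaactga
PARP9: gggcgcaaagTTTCAGTTTCgcttccctgg
BST2: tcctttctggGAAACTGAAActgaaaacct

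The TAP1 window lies at chr6:32853819-32853848 on the minus strand with its match starting at position -134, where -1 is the base just before the start site. The SAMD9 window, at chr7:93118096-93118125 on the minus strand, starts its match at -136. In IFI44L the printed 30 bases occur again further down the promoter, at chr1:78620274-78620303 and chr1:78620365-78620394 on the plus strand, with matches starting at -164 and -73. The ISG15 window is chr1:1013374-1013403 (plus strand, match at -113), and the BST2 window is chr19:17405741-17405770 (minus strand, match at -130). TAP1, ISG15 and BST2 each hold a further match that overlaps the printed one. The PARP9 window, chr3:122564322-122564351 on the minus strand, is also the window of DTX3L read on the plus strand: the genes start away from each other, and the match begins at -41 from the PARP9 start and at -6 from the DTX3L start.

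Levels between genes were compared in FPKM, which is scaled to transcript length. B2M, the invariant light chain of MHC class I, was the most abundant member at 185 FPKM averaged over the 9 libraries, with a range of 143 to 248. IFI44 followed at 57.5 FPKM (42.1 to 71.2), and neither range overlapped that of any other member. IFI44L, its neighbour and homologue, and IFITM3, a membrane protein that hinders virus entry, averaged 19.2 and 17.2 FPKM with overlapping ranges. BST2, a tether that holds budding virus particles on the cell, averaged 10.4 FPKM, and EIF2AK2, the double-stranded RNA-activated kinase PKR, averaged 7.41. STAT2, IFIT5, CMPK2 and HERC5 lay between 4.67 and 5.63 FPKM with overlapping ranges. In all, 20 of the 46 members averaged at least 1 FPKM.

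At the other end, 3 members had no count in any library: the immunoproteasome subunits PSMB8 and PSMB9 and the antiviral gene SAMD9L. A further 7, IFIH1, DHX58, OAS2, OASL, MX2, HLA-B and HLA-C, were counted too sparsely to pass the filter on low counts. IFIH1, which encodes the RNA sensor MDA5, had 7 counts in siNTC replicate 1 and none in the other siNTC libraries or in siTBX2, and 4, 4 and 8 counts in siTBX2-AS1. Thus 36 of the 46 members were tested, and counts over those 36 leave out the sparsest genes. TAP1 and OAS1 were tested close to the detection limit. The filter asked for 0.228 CPM in at least 3 libraries, which TAP1 reached in 0 siNTC, 1 siTBX2 and 2 siTBX2-AS1 libraries and OAS1 in 1, 0 and 2. The plot of FPKM for all 46 members shows this spread of levels.

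**Figure D1:**
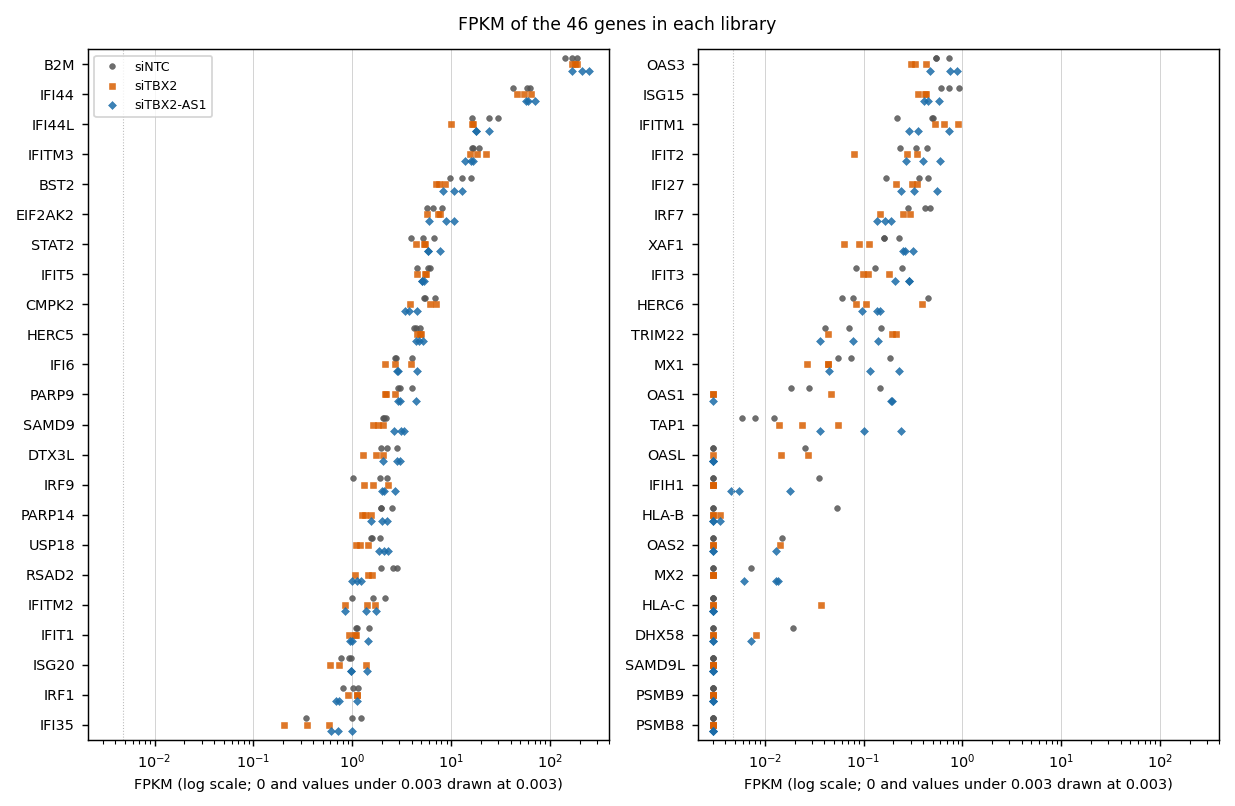
FPKM (log axis) of each of the 46 members in each of the 9 libraries, ordered by mean level, with colours and shapes for the 3 groups. B2M, IFI44 and IFI44L head the order at means of 185, 57.5 and 19.2 FPKM, and SAMD9L, PSMB8 and PSMB9 are at 0 in every library (drawn at the left edge).

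The class I pathway was uneven along its length. The light chain B2M was abundant, as were the endoplasmic reticulum chaperones CALR and CANX at 110 and 151 FPKM and the constitutive proteasome subunits PSMB5, PSMB6 and PSMB7 at 42.9, 44.6 and 119 FPKM. Their interferon-inducible counterparts differed: PSMB8, which replaces PSMB5, and PSMB9, which replaces PSMB6, were at 0, while PSMB10, which replaces PSMB7, averaged 5.53 FPKM. Among the heavy chains described here, HLA-E averaged 1.92 FPKM, HLA-B had 7 counts and HLA-C 5 counts over all 9 libraries, and HLA-F had none. TAP1 averaged 0.0546 FPKM, against 0.991 for TAP2, the other subunit of the transporter, and 1.94 for TAPBP (tapasin), which bridges TAP and the heavy chain. NLRC5, the transactivator of class I genes, averaged 0.0233 FPKM.

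HLA genes resemble each other, so how their reads were divided is uncertain, and the handling of multiply aligned reads is not given in the sources used here. From HLA-E to TAPBP on chromosome 6 the annotation holds 134 protein-coding genes, of which 57 had an siNTC level of at least 1 FPKM and 38 had no count in any library. TUBB, DDX39B, BAG6 and BRD2, which lie among them, stood at 161, 37.7, 19.8 and 10.3 FPKM in siNTC. The part that alignment and counting have in the zeros of PSMB8 and PSMB9 was not tested. The plot of class I genes by library sets these components side by side.

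**Figure D2:**
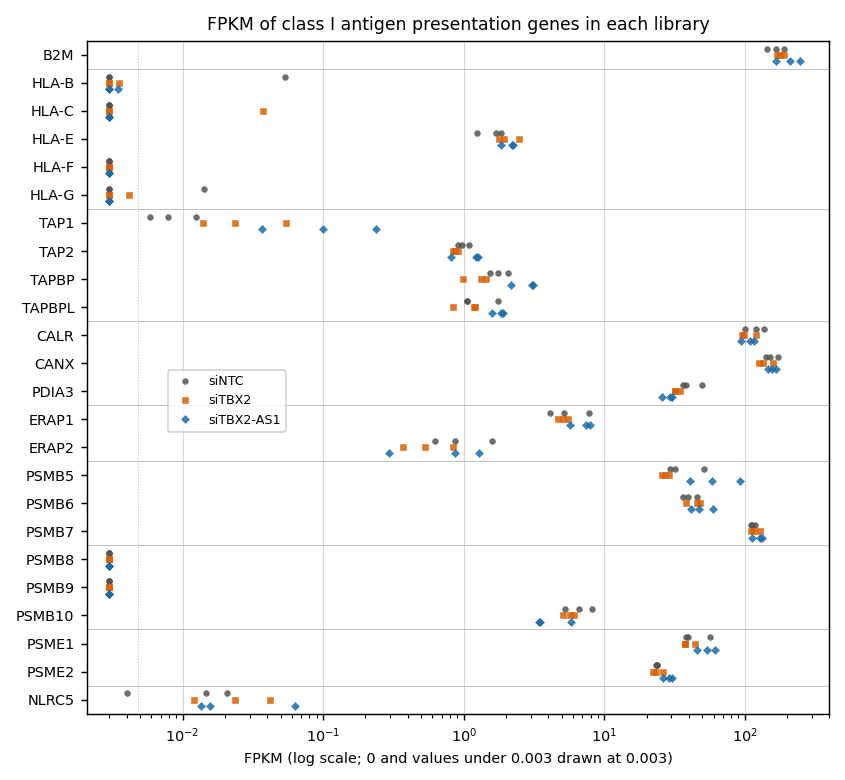
FPKM (log axis) of class I antigen presentation genes in each of the 9 libraries, grouped as light chain, heavy chains, transporter and tapasins, chaperones, trimming peptidases, constitutive proteasome subunits, immunoproteasome subunits, proteasome activators and NLRC5. B2M, CALR, CANX, PSMB5, PSMB6 and PSMB7 lie above 20 FPKM in every library, and HLA-B, HLA-C, HLA-F, HLA-G, PSMB8 and PSMB9 lie at or near 0.

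With TBX2 knocked down, the interferon-stimulated members leaned lower, and no single member passed the edgeR test across all genes in the fit on group alone. The edgeR fit with the replicate number as a block, given below, called 3 members lower. Of the 36 tested members 27 had a negative log2 fold change (75.0%), against 49.4% of all 18367 tested genes, and their median was -0.21 against 0.00 for all genes. Among members with a mean of at least 1 FPKM, 17 of 20 were negative (85.0%), against 47.4% of all tested genes at that level. Members can vary together within a library, so these shares do not count independent genes. Against the siNTC mean, siNTC replicate 1 by itself had 27 members above and 9 below. The siTBX2 replicates 1, 2 and 3 had 19, 9 and 8 above and 17, 27 and 28 below. The call rate in this comparison was 1.61% of all genes at an adjusted p under 0.05, in either direction, and 0 members were called. At an unadjusted p under 0.05, 9 members were lower and 0 higher, where 7.5% of all genes were lower and 8.54% higher. The 3 siTBX2 libraries lay wholly below the 3 siNTC libraries for 12 members and wholly above for 1, where 10.6% of all genes lay below and 12.3% above. OAS1 is among the 27 and the 12, and it passed the filter only through siNTC and siTBX2-AS1 libraries, where it was higher. DESeq2 called 1 member lower (6.45% of genes called) and limma-voom called 0 (1.69%).

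The median moved when single libraries were left out: it was -0.07 without siNTC replicate 1 and -0.38 without siTBX2 replicate 1. Such fits leave the replicate numbers unbalanced between the groups, and replicate 1 had the highest member median in each group. Between same-numbered libraries the member median was lower in siTBX2 than in siNTC each time (-0.16, -0.15 and -0.16 for replicates 1, 2 and 3). In a fit with the replicate number as a block, 3 members fell: BST2 (adjusted p = 0.0216), PARP9 (0.0392) and DTX3L (0.0292), where 4.75% of all genes were called. The plot of log2 fold changes places all 36 tested members side by side for each comparison.

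**Figure D3:**
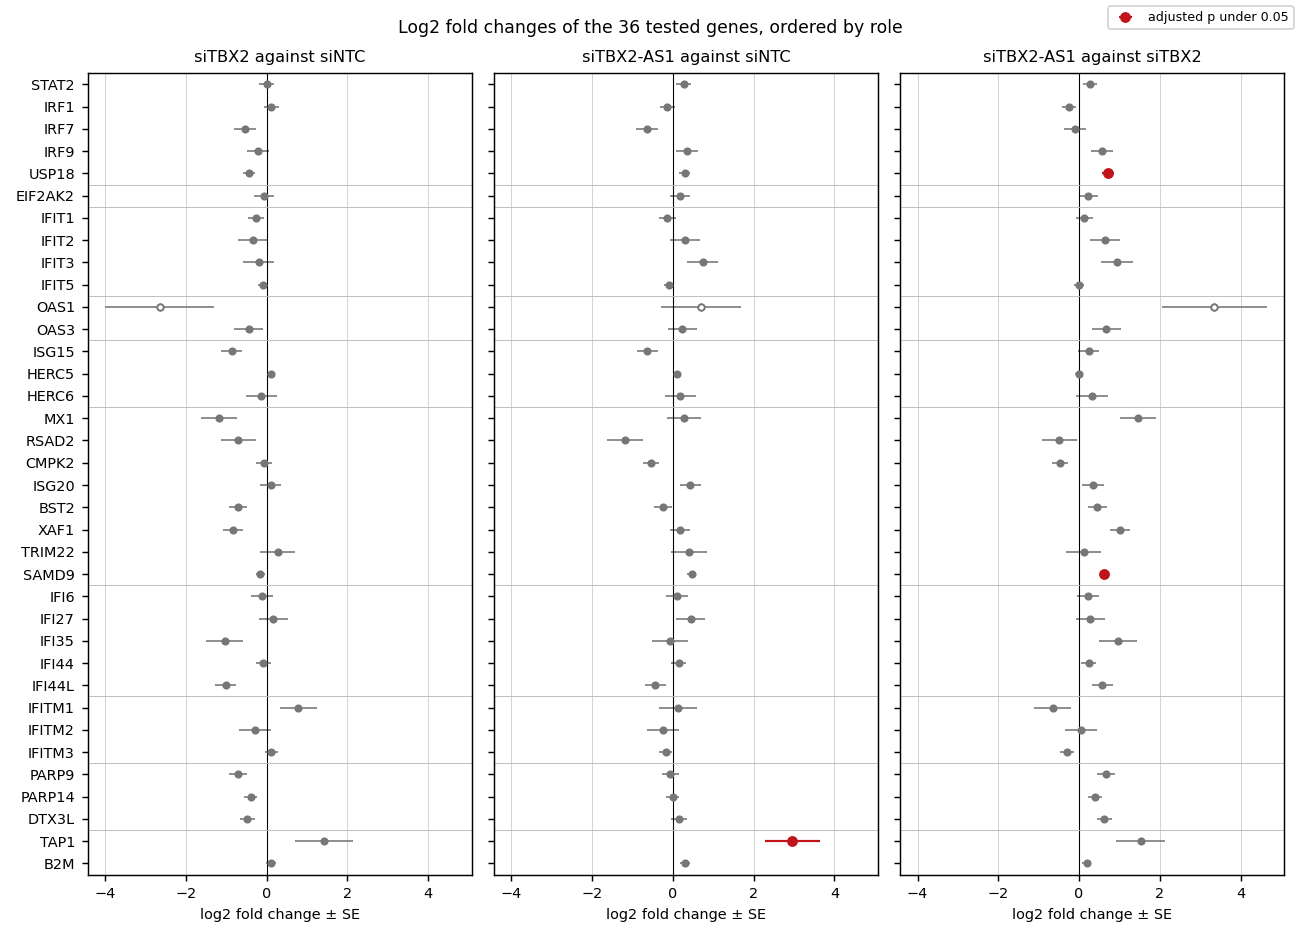
Log2 fold change ± SE (edgeR) of the 36 tested members, ordered by role, in each knockdown against siNTC and in siTBX2-AS1 against siTBX2; red marks an adjusted p under 0.05 and the open point is OAS1, which had 3 counts in all of siTBX2. In the first panel 27 of 36 values are below 0 and none is red, in the second TAP1 is red, and in the third USP18 and SAMD9 are red.

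Values per library are given as replicates 1, 2 and 3 in CPM. BST2, the tether, stood at 20.2, 19.5 and 12.9 in siNTC, at 11.2, 12.2 and 8.79 in siTBX2 and at 17.6, 15.3 and 11.2 in siTBX2-AS1. All siTBX2 libraries were below all siNTC libraries, replicate 3 was the lowest within each group, and siTBX2-AS1 overlapped both other groups. The log2 fold change in siTBX2 was -0.71 (SE 0.23, adjusted p = 0.177 without the block).

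PARP9 and DTX3L encode an ADP-ribosyltransferase and a ubiquitin ligase that work as a complex. PARP9 read 23.6, 17.4 and 20.5 CPM in siNTC, then 14.7, 11.6 and 11.2 in siTBX2, then 26.2, 18.0 and 14.8 in siTBX2-AS1. DTX3L read 24.5, 17.4 and 20.3 in siNTC, against 17.8, 11.7 and 15.2 in siTBX2 and, in siTBX2-AS1, 25.7, 19.8 and 23.5. PARP9 in siTBX2 lay below every siNTC library, while DTX3L replicate 1 of siTBX2 overlapped siNTC. Log2 fold changes in siTBX2 were -0.72 (SE 0.22, adjusted p = 0.157) for PARP9 and -0.48 (SE 0.19, adjusted p = 0.266) for DTX3L. Their exons share 217 bases on opposite strands, and whether counting used strand is not given in the sources used here.

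PARP14, a further ADP-ribosyltransferase on the same chromosome, read 28.3, 21.4 and 20.8 CPM in siNTC, then 20.4, 17.5 and 15.6 in siTBX2, then 27.1, 20.8 and 22.3 in siTBX2-AS1. The siTBX2 libraries were again the lowest, with a log2 fold change of -0.40 (SE 0.17, adjusted p = 0.291, and 0.0517 with the block). In siTBX2-AS1 against siNTC the 3 genes of this group had values of -0.06, 0.15 and -0.01, for PARP9, DTX3L and PARP14 in turn, none of them called.

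IFI44L, of unsettled biochemical function and widely used as an interferon signature gene, had the smallest p of all members in siTBX2. It read 120, 78.8 and 143 CPM in siNTC, against 64.7, 63.1 and 41.1 in siTBX2 and, in siTBX2-AS1, 81.6, 68.0 and 102. The siTBX2 libraries were the lowest on this scale, whereas in FPKM siNTC replicate 2 (16.2) fell among siTBX2 (16.5, 16.2 and 10.1). The log2 fold change was -1.01 (SE 0.26, adjusted p = 0.104, and 0.112 with the block), which DESeq2 called (adjusted p = 0.00513). Its neighbour IFI44 read 238, 224 and 158 CPM in siNTC, then 225, 188 and 170 in siTBX2, then 266, 233 and 186 in siTBX2-AS1, with all groups overlapping and log2 fold changes of -0.09 and 0.15 in the knockdowns.

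XAF1, an antagonist of the apoptosis inhibitor XIAP, read 0.961, 1.11 and 1.11 CPM in siNTC, against 0.403, 0.669 and 0.702 in siTBX2 and, in siTBX2-AS1, 1.18, 1.21 and 1.21. The siTBX2 libraries were the lowest and the siTBX2-AS1 libraries the highest, with no overlap between any pair of groups. In siTBX2 the log2 fold change was -0.84 (SE 0.25, adjusted p = 0.145), and in siTBX2-AS1 it was 0.18 (adjusted p = 0.774). MX1, a GTPase that traps viral nucleocapsids, read 0.569, 0.603 and 0.407 CPM in siNTC, then 0.212, 0.239 and 0.241 in siTBX2, then 0.85, 0.785 and 0.248 in siTBX2-AS1. It rested on 73 counts in siNTC and 31 in siTBX2, a depth-scaled ratio of 0.436 with a 95% exact interval of 0.277 to 0.673 that covers counting error alone, and the siTBX2-AS1 libraries spanned both other groups. MX1 was chosen after its values were seen, as were RSAD2, CMPK2 and IFNAR1.

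ISG15 is a ubiquitin-like protein that is conjugated to other proteins. It read 0.961, 0.650 and 0.792 CPM in siNTC, against 0.446, 0.478 and 0.395 in siTBX2 and, in siTBX2-AS1, 0.599, 0.481 and 0.466. All 6 knockdown libraries lay below the 3 siNTC libraries, with log2 fold changes of -0.86 (SE 0.26, adjusted p = 0.146) and -0.63 (SE 0.26, adjusted p = 0.233). The counts behind it were 15 to 49 per library.

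HERC5, the ligase that attaches ISG15, read 21.9, 25.3 and 22.4 CPM in siNTC, then 23.2, 25.7 and 25.5 in siTBX2, then 26.0, 25.0 and 23.1 in siTBX2-AS1. Its groups overlapped, with log2 fold changes of 0.10 and 0.09 (SE 0.10 each). HERC6, its homologue, read 0.922, 0.348 and 0.475 CPM in siNTC, against 0.679, 0.502 and 0.417 in siTBX2 and, in siTBX2-AS1, 0.734, 0.582 and 0.683, and the spread within siNTC covered both knockdowns.

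Among the signalling and transcription factor members, IRF7, which amplifies type I interferon transcription, also lay lower in both knockdowns. It read 0.549, 0.673 and 0.860 CPM in siNTC, then 0.509, 0.526 and 0.395 in siTBX2, then 0.464, 0.456 and 0.404 in siTBX2-AS1. No knockdown library reached an siNTC library, and the log2 fold changes were -0.54 (SE 0.27, adjusted p = 0.371) and -0.65 (SE 0.27, adjusted p = 0.249), on 13 to 38 counts per library. STAT2 read 34.4, 27.7 and 24.6 CPM in siNTC, against 31.3, 31.6 and 23.7 in siTBX2 and, in siTBX2-AS1, 41.3, 33.4 and 29.4, and its groups overlapped. IRF1 and IRF9 overlapped between siNTC and each knockdown, and both share exon bases with other genes: 22% of IRF1 with an antisense gene, C5orf56, and 48.4% of IRF9 with AL136295.5 on the same strand.

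The IFIT proteins bind viral RNA ends and block translation, and all 4 had negative values in siTBX2, from -0.34 to -0.09, with 0 called. IFIT1 read 4.10, 3.13 and 3.28 CPM in siNTC, then 2.61, 3.11 and 3.05 in siTBX2, then 4.02, 2.91 and 2.64 in siTBX2-AS1. IFIT2 read 2.34, 1.81 and 1.34 in siNTC, against 1.89, 1.58 and 0.877 in siTBX2 and, in siTBX2-AS1, 3.15, 1.57 and 2.02, and IFIT3 read 0.903, 0.325 and 0.521, then 0.679, 0.454 and 0.395, then 1.06, 0.860 and 1.02 in the same order of groups. For IFIT1 siTBX2 lay just below siNTC, for IFIT2 and IFIT3 they overlapped, and in siTBX2-AS1 the 4 genes ran from -0.13 to 0.74 with 0 called. EIF2AK2, the tested RNA sensor, read 103, 87.3 and 85.0 CPM in siNTC, then 100, 63.3 and 101 in siTBX2, then 124, 69.4 and 118 in siTBX2-AS1. Its replicate 2 was low in both knockdowns and the groups overlapped, with log2 fold changes of -0.06 and 0.17 (SE 0.25 each).

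The OAS proteins make oligoadenylates that activate the nuclease RNase L. OAS3 read 3.24, 1.95 and 3.33 CPM in siNTC, against 1.27, 2.15 and 2.83 in siTBX2 and, in siTBX2-AS1, 4.56, 2.38 and 3.04, with overlap between all groups. OAS1 had 12, 4 and 6 counts in siNTC, then 0, 3 and 0 in siTBX2, then 20, 14 and 0 in siTBX2-AS1. In CPM these were 0.235, 0.0928 and 0.136, then 0, 0.0717 and 0, then 0.386, 0.354 and 0. The summed counts, 3 against 22, give a depth-scaled ratio of siTBX2 to siNTC of 0.14 with a counting interval of 0.0268 to 0.466, and the difference was not called (adjusted p = 0.383).

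Other members named for their role group showed no separation of siTBX2 from siNTC beyond their spread. IFI35 read 1.90, 0.951 and 0.543 CPM in siNTC, against 0.594, 0.693 and 0.373 in siTBX2 and, in siTBX2-AS1, 1.39, 0.936 and 0.9; siNTC replicate 3 fell among siTBX2, and the log2 fold change was -1.04 (SE 0.46, adjusted p = 0.318). IFI27, a mitochondrial membrane protein, read 0.530, 0.487 and 0.339 in siNTC, then 0.530, 0.693 and 0.307 in siTBX2, then 0.560, 0.759 and 0.528 in siTBX2-AS1. IFI27 overlapped between all groups, and both genes rested on 14 to 97 counts per library.

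Of the IFITM proteins, which act in membranes against virus fusion, 2 of 3 had positive values in siTBX2 and 0 were called. IFITM1 read 0.275, 0.650 and 0.679 CPM in siNTC, against 0.679, 1.24 and 0.833 in siTBX2 and, in siTBX2-AS1, 0.367, 0.506 and 0.9. It was the 1 member whose siTBX2 libraries all lay above siNTC, by a margin that vanishes at the printed precision (log2 fold change 0.78, SE 0.45, adjusted p = 0.454). IFITM2 read 1.73, 2.04 and 1.04 in siNTC, then 1.74, 0.884 and 1.29 in siTBX2, then 1.33, 1.95 and 0.776 in siTBX2-AS1, and IFITM3 read 22.6, 20.4 and 20.1, then 27.4, 22.7 and 18.2, then 15.9, 20.8 and 18.9. IFITM1 and IFITM2 are close paralogs whose models share 351 exon bases, so the division of reads between them is uncertain.

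With TBX2-AS1 knocked down, the members as a group were spread around 0: 22 of 36 had a positive log2 fold change and 14 a negative one, with a median of 0.15 against 0.01 for all genes. Without siTBX2-AS1 replicate 1 the median was -0.01. TAP1 was the 1 member called higher, and 0 were called lower, where 4.57% of all genes were called in either direction. TAP1 entered the test only through knockdown libraries, where it was high, so its call is a description and supports nothing about the members. At an unadjusted p under 0.05, 3 members were higher and 4 lower, where 9.29% and 9.1% of all genes were. No overlap with siNTC was seen for 4 members that were higher and 4 that were lower, against 12.3% and 11.7% of all genes. TAP1 is among the 22 positive members, the 3 higher ones and the 4 higher ones without overlap, and OAS1 is among the 22. With the replicate block, SAMD9 rose and RSAD2 fell, TAP1 missed the threshold, and 9.48% of all genes were called.

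TAP1, a subunit of the peptide transporter, had very few reads. Its counts were 2, 4 and 3 in siNTC, against 4, 13 and 7 in siTBX2 and, in siTBX2-AS1, 43, 20 and 7, or 0.0392, 0.0928 and 0.0679, then 0.0849, 0.311 and 0.153, then 0.831, 0.506 and 0.217 CPM. Every siTBX2-AS1 library exceeded every siNTC library, and replicate 3 lay within the siTBX2 range. The log2 fold change was 2.95 (SE 0.68, adjusted p = 0.0465), and the summed counts of 70 against 9 give a depth-scaled ratio of 8.71 with a counting interval of 4.33 to 19.8. The call was kept in 1 of 9 fits that each left out a library, the one without siTBX2-AS1 replicate 3, and the adjusted p was 0.0512 with the replicate block. DESeq2 gave TAP1 no adjusted p, and limma-voom did not call it (0.0681). At its highest TAP1 remained far below TAP2 in FPKM (0.124 against 0.991, the siTBX2-AS1 mean against the TAP2 mean over 9 libraries).

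SAMD9, a restriction factor of poxviruses, read 19.6, 21.1 and 22.9 CPM in siNTC, then 16.6, 19.4 and 20.9 in siTBX2, then 30.7, 28.2 and 28.9 in siTBX2-AS1. The siTBX2-AS1 libraries stood above all 6 others, which overlapped each other. Against siNTC the log2 fold change was 0.47 (SE 0.11, adjusted p = 0.0573), and it passed with the block (adjusted p = 0.0366) and by DESeq2 (0.00645). Its neighbour and homologue SAMD9L was at 0 throughout.

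RSAD2 (viperin, which makes a chain-terminating nucleotide) and CMPK2 (a mitochondrial nucleotide kinase) lie head to head on chromosome 2 and both had negative log2 fold changes in siTBX2-AS1. RSAD2 read 17.6, 19.8 and 22.9 CPM in siNTC, against 6.22, 14.9 and 16.1 in siTBX2 and, in siTBX2-AS1, 4.10, 12.3 and 10.2. CMPK2 read 23.6, 19.6 and 18.7 in siNTC, then 24.9, 14.2 and 19.9 in siTBX2, then 14.9, 13.1 and 14.5 in siTBX2-AS1. For both, each siTBX2-AS1 library was below each siNTC library, and for RSAD2 replicate 1 of both knockdowns was far below replicates 2 and 3 in CPM. In FPKM replicate 1 was instead the highest of each knockdown, at 1.6, 1.07 and 1.46 in siTBX2, then 1.24, 0.988 and 1.13 with TBX2-AS1 knocked down, all below siNTC at 2.81, 1.95 and 2.57. The RSAD2 log2 fold change was -1.19 (SE 0.45, adjusted p = 0.201), and it was called lower with the block (-1.34, adjusted p = 0.0387), by DESeq2 (adjusted p = 0.0405) and on log2(FPKM + 1) (adjusted p = 0.0354). For CMPK2 it was -0.54 (SE 0.20, adjusted p = 0.178, and 0.0696 with the block). B2M read 218, 199 and 171 CPM in siNTC, against 210, 204 and 220 in siTBX2 and, in siTBX2-AS1, 277, 212 and 233, which overlapped siNTC, with log2 fold changes of 0.11 and 0.30 (SE 0.12 each) in the knockdowns.

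**Figure D4:**
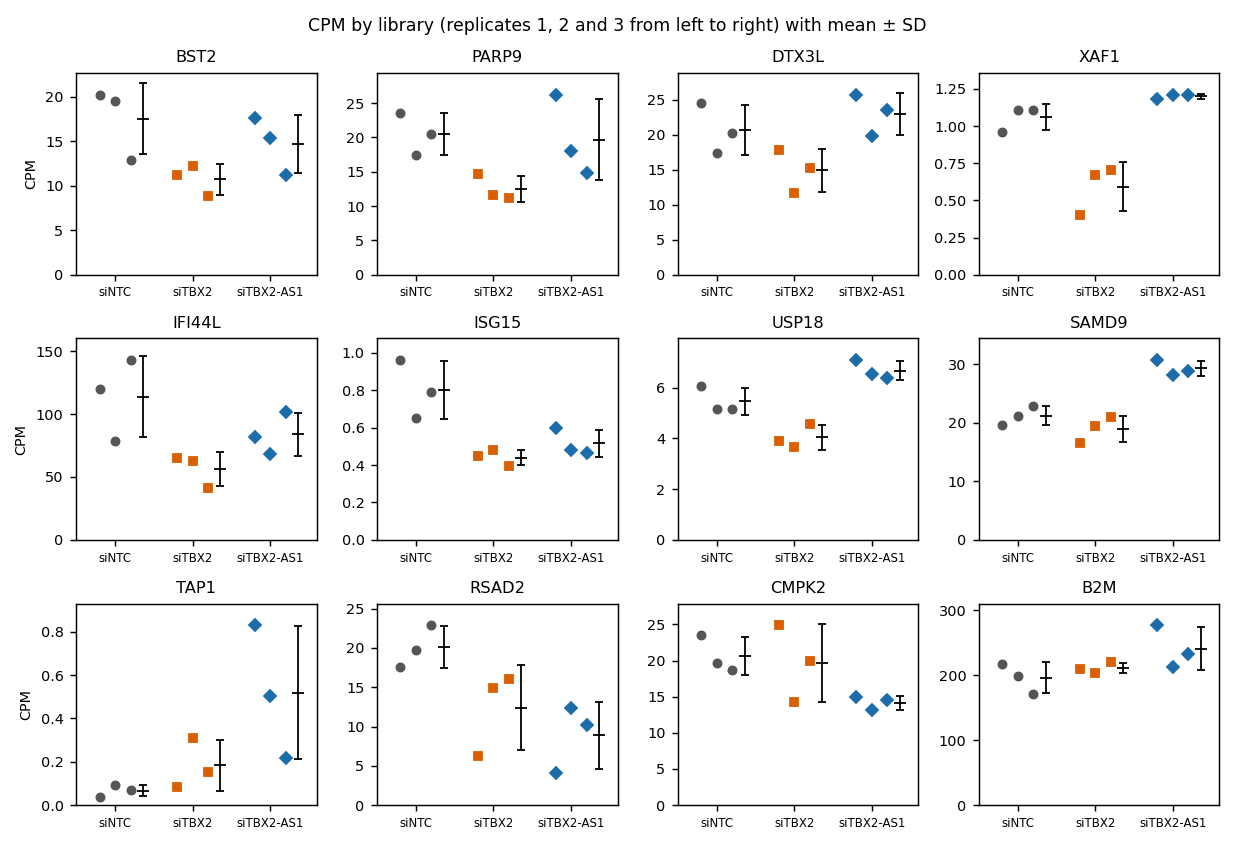
CPM (linear axis from 0) of 12 members in each library, 3 points per group for replicates 1, 2 and 3 with the mean ± SD beside them. BST2, PARP9, XAF1 and ISG15 have their lowest means in siTBX2, where single libraries of BST2 and ISG15 overlap siTBX2-AS1. SAMD9 and USP18 are highest in siTBX2-AS1, TAP1 reaches 0.831 CPM in siTBX2-AS1 replicate 1, and RSAD2 and CMPK2 have their lowest means in siTBX2-AS1.

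Placed directly against siTBX2, the siTBX2-AS1 libraries had more of most members: 28 of 36 log2 fold changes were positive, with a median of 0.30 against 0.01 for all genes. USP18 and SAMD9 were called higher and 0 members lower, where 5.53% of all genes were called. At an unadjusted p under 0.05, 10 members were higher and 1 lower (9.91% and 10.2% of all genes), and without overlap 11 were higher and 0 lower (13.1% and 13.5%). OAS1 and TAP1 are among the 28 and the 10. Both passed the filter mostly through siTBX2-AS1 libraries, where they were high, so their part in these counts is a description only. This contrast shares its libraries with both comparisons above and is no separate evidence of either.

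USP18 removes ISG15 from proteins and restrains signalling at the type I receptor. It read 6.08, 5.15 and 5.16 CPM in siNTC, then 3.88, 3.66 and 4.58 in siTBX2, then 7.09, 6.53 and 6.39 in siTBX2-AS1. The 3 groups did not overlap at any point: siTBX2 was the lowest and siTBX2-AS1 the highest. Against siNTC the log2 fold changes were -0.44 (SE 0.14, adjusted p = 0.184) and 0.29 (SE 0.14, adjusted p = 0.335), and between the knockdowns 0.72 (SE 0.14, adjusted p = 0.0239). A near-identical copy, USP41, had 17 to 42 counts per library against 153 to 367 for USP18, so a small share of reads could be exchanged between them.

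SAMD9 differed between the knockdowns by 0.63 on the log2 scale (SE 0.11, adjusted p = 0.0171). The call was kept in 5 of 9 fits that left out a library, and that of USP18 in 4 of 9. Leaving out siTBX2 replicate 1, siTBX2 replicate 2, siTBX2-AS1 replicate 1 or siTBX2-AS1 replicate 3 ended both calls, with adjusted p up to 0.0917 for USP18 and 0.065 for SAMD9. Leaving out siTBX2-AS1 replicate 2 ended that of USP18 (adjusted p = 0.0701), and without siTBX2-AS1 replicate 3 MX1 was called higher (adjusted p = 0.0261). Without the block, XAF1 missed the threshold at 1.02 (SE 0.25, adjusted p = 0.0518), and PARP9, DTX3L and PARP14 had positive values of 0.66, 0.63 and 0.39 that were not called (adjusted p from 0.0994 to 0.235). With the block these 4 were called higher (adjusted p of 0.0319, 0.0319, 0.00732 and 0.0318 in that order), and in that fit 951 of all 18367 tested genes were called higher and 1133 lower. Between the knockdowns the replicate numbers pair the samples less clearly. There the correlations were 0.0728 to 0.219 for same numbers and -0.163 to 0.0238 for different ones. DESeq2 called XAF1 (0.0188) and DTX3L (0.0386), beside 824 of all tested genes higher and 1117 lower.

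The members also varied with the replicate number. Relative to the siNTC mean, the median log2 difference over the 36 tested members was 0.17, -0.05 and -0.07 in siNTC replicates 1, 2 and 3, 0.01, -0.19 and -0.24 in those of siTBX2, then 0.22, 0.01 and -0.03 in those of siTBX2-AS1. Replicate 1 was the highest in each group, and within each replicate number siTBX2 was the lowest of the 3 groups. Within groups this median had a pooled SD of 0.132 between libraries. Between same-numbered libraries the median was lower in siTBX2 than in siNTC by a similar amount each time (-0.16, -0.15 and -0.16 for replicates 1, 2 and 3), while siTBX2-AS1 differed from siNTC by 0.06, 0.06 and 0.04. With the replicate block the median log2 fold change of the members was -0.19 in siTBX2 and 0.15 in siTBX2-AS1.

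The genes upstream were read from lists of the pathway. Of 9 interferon ligands (type I, II and III) 8 had no count in any library, and IFNL1 had 2 counts. The receptor and signalling genes were present: JAK1 averaged 35.5, STAT3 17.0, TYK2 9.09 and IFNAR1 2.90 FPKM, whereas IFNLR1, the receptor chain specific to type III interferon, averaged 0.000856. Of 14 such genes 13 were tested, and 0 were called in siTBX2 (median log2 fold change 0.07). In siTBX2-AS1, 1 was called higher and 0 lower (median 0.07). Of all tested genes 1.61% were called in siTBX2 and 4.57% in siTBX2-AS1, in either direction. A single call in this list or in those below describes that gene and not the list.

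The called gene was IL10RB, the receptor chain shared by type III interferon and interleukin 10. It read 7.85, 8.01 and 6.95 CPM in siNTC, against 9.76, 13.2 and 7.30 in siTBX2 and, in siTBX2-AS1, 24.4, 20.1 and 17.7. The siTBX2-AS1 libraries were above all others, and IL10RB rose by 1.45 (SE 0.22, adjusted p = 0.00893), a call kept in all 9 fits that left out a library. It was also called against siTBX2 (1.04, SE 0.22, adjusted p = 0.0286), a call kept in 3 of 9 such fits.

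STAT3, a signal transducer of interleukin 6 and related cytokines, read 79.9, 75.0 and 80.2 in siNTC, against 108, 92.9 and 106 in siTBX2 and, in siTBX2-AS1, 91.4, 75.9 and 80.7, where siTBX2 stood apart from siNTC (0.38, SE 0.09, adjusted p = 0.0912, 0.0279 with the block and 0.0344 by DESeq2). IFNAR1, a chain of the type I receptor, read 32.5, 33.1 and 32.8 in siNTC, then 17.4, 19.8 and 27.5 in siTBX2, then 23.5, 17.8 and 24.6 in siTBX2-AS1. All 6 knockdown libraries were below siNTC, with log2 fold changes of -0.60 and -0.58 (SE 0.18 each, adjusted p = 0.15 and 0.126). With the block these were not called (adjusted p = 0.0783 and 0.0707), and DESeq2 called both (adjusted p = 0.044 and 0.0392). PTPN2, a tyrosine phosphatase that acts on JAK kinases, read 32.8, 28.9 and 31.8 CPM in siNTC, against 31.0, 26.3 and 28.7 in siTBX2 and, in siTBX2-AS1, 26.1, 24.2 and 23.9. Its siTBX2-AS1 libraries lay below all others, with a log2 fold change of -0.33 against siNTC (SE 0.10, adjusted p = 0.105, 0.0339 with the block and 0.0435 by DESeq2) that was positive on the FPKM scale (0.37, adjusted p = 0.684).

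Of 19 genes that sense nucleic acid or induce interferon, 15 were tested. Where 1.61% of all genes were called in siTBX2 and 4.57% in siTBX2-AS1, 1 of the 15 was called lower and 0 higher in each. This was TANK, a scaffold of the kinases that activate IRF3 and IRF7. TANK read 39.5, 28.2 and 32.7 CPM in siNTC, against 13.8, 16.9 and 12.6 in siTBX2 and, in siTBX2-AS1, 14.5, 19.8 and 16.6. The knockdowns overlapped each other and lay well below siNTC, and TANK fell by 1.22 (SE 0.18, adjusted p = 0.0202) and by 0.98 (SE 0.18, adjusted p = 0.0182), in comparisons that share the siNTC libraries. These calls were kept in 5 and 6 of 9 fits that left out a library. Neither was kept by limma on log2(FPKM + 1), where the values were -0.42 and -0.45 (adjusted p = 0.613 and 0.524). On log2(FPKM + 0.1) they were -0.48 and -0.51 (adjusted p = 0.612 and 0.524). ADAR, which edits double-stranded RNA, and TBKBP1, an adaptor of the kinase TBK1, were not called: ADAR averaged 311 ± 26.4, 338 ± 18.3 and 369 ± 34.1 CPM in siNTC, siTBX2 and siTBX2-AS1, and TBKBP1 16.5 ± 0.56, 17.5 ± 0.512 and 12.8 ± 2.1.

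Of 15 other class I genes 13 were tested. In siTBX2 0 were called (1.61% of all genes), and 10 of 13 were negative, against 49.4% of all genes (median -0.18). In siTBX2-AS1 1 was called lower and 0 higher (4.57% of all genes called). There 9 of 13 were positive and 4 negative (median 0.19), where 48.7% of all genes were negative. The called gene was PDIA3, the disulfide isomerase of the peptide-loading complex, which read 337, 285 and 265 CPM in siNTC, then 248, 225 and 244 in siTBX2, then 223, 223 and 219 in siTBX2-AS1. It lay below siNTC in both knockdowns and fell in siTBX2-AS1 by 0.42 (SE 0.09, adjusted p = 0.0386, kept in 1 of 9 fits that left out a library). The lectin chaperone CANX averaged 922 ± 77, 770 ± 28.8 and 934 ± 54.1 CPM in the 3 groups and was lower in siTBX2 with the block (-0.26, adjusted p = 0.0257; 0.13 without it). PSME2, a subunit of the proteasome activator PA28, averaged 43.5 ± 0.873, 44.4 ± 1.47 and 51.8 ± 2.35 CPM and was not called (adjusted p = 0.9 and 0.105).

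Of the 6 tested constitutive proteasome subunits 0 were called in either knockdown. PSMB4, PSMB5 and PSMB6 had log2 fold changes of 0.16, 0.60 and 0.26 in siTBX2-AS1, with SE of 0.07, 0.28 and 0.10. Class II genes were near the detection limit: 2 of 9 were tested, CD74 at 0.114 and HLA-DPA1 at 0.0643 FPKM, and neither was called.

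Of 36 further interferon-stimulated genes outside the list of members, 26 were tested. In siTBX2 17 of 26 were negative with a median of -0.19, against 49.4% of all genes, and 1 was called lower and 0 higher (1.61% of all genes called). The called gene was GBP2, a guanylate-binding protein, at 17.7, 14.6 and 17.0 CPM in siNTC, against 12.0, 10.1 and 9.98 in siTBX2 and, in siTBX2-AS1, 15.6, 14.4 and 15.1. Its siTBX2 libraries lay below all others, and it fell by 0.62 (SE 0.12, adjusted p = 0.0468), a call kept in 0 of 9 fits that left out a library. In siTBX2-AS1 13 were positive and 13 negative, with 0 called (4.57% of all genes called) and a median of 0.03. There SP110, a nuclear body protein, averaged 19 ± 2.23 CPM in siNTC, 22.4 ± 2.46 in siTBX2, and 29.9 ± 6.26 with TBX2-AS1 knocked down, and was higher with the block (0.64, adjusted p = 0.0101; 0.0668 without it) and by DESeq2 (0.0143). ZNFX1, a helicase that senses viral RNA, averaged 34.0 ± 5.2, 40.2 ± 0.792 and 48.6 ± 9.11 CPM and was not called by edgeR (0.52, adjusted p = 0.101) but was by DESeq2 (0.0409).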

How the data were processed

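Total RNA was made into stranded libraries after ribosomal RNA depletion, per the labels' protocols. The authors used FastQC, STAR 2.4.2a and StringTie 1.3.3 with build hg19, per the submitters' processing notes; no source used here gives the counting program, annotation, use of strand or siRNA sequences. The authors deposited a table of counts, which were whole numbers unscaled for depth, and a table of FPKM, scaled to transcript length and mapped fragments.

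From the deposited expected counts, edgeR 4.0.16 (R 4.3.3) tested 18367 genes that passed filterByExpr, with TMM scaling and robust quasi-likelihood F tests on all 9 libraries. A gene with an adjusted p (Benjamini-Hochberg over all tested genes) under 0.05 is called and said to have risen or fallen. The fits were tested on simulated data. CPM is the count over the library's total as scaled by TMM. Symbols were found for 51945 of 57757 IDs; 3 pathway genes (IKBKE, PSMB3 and CCL5) were not matched. Promoters came from RefSeq on GRCh38.p14, and exon overlaps from GENCODE release 29 on GRCh38, neither of them the build of the files.

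The members and lists were chosen with earlier results of these data known. Some genes of the pathway and marker lists are not reported here and were left out of the lists' counts. Members are given per library if called in any comparison, if among the 3 in their role group with the smallest p in a knockdown, or if among the 3 most abundant; pathway genes if called or among the 3 smallest p of their list. Same-numbered replicates deviated together between siNTC and siTBX2 (correlations 0.136 to 0.241 over genes) and between siNTC and siTBX2-AS1 (0.104 to 0.243), so these numbers pair the samples. Counts of libraries within each group differed with a chi-square per gene of 42.016 to 65.756, so none was a duplicate. Alternatives were other scalings, filters, DESeq2 1.42.0, limma-voom and limma 3.58.1 on log2(FPKM + 1) or log2(FPKM + 0.1), fits on 2 groups, the block, and leaving out each library.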

Additional observations from a re-analysis of the deposited data

How the results depend on the processing

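No called gene named in the text reversed its direction under any alternative run. PTPN2, which was not called, turned from -0.33 in siTBX2-AS1 to 0.37 on log2(FPKM + 1), with or without the FPKM filter, and to 0.45 on log2(FPKM + 0.1). Counts of called genes, for siTBX2 and for siTBX2-AS1 (each against siNTC) and for the knockdowns against each other, in that order, were 295, 840 and 1015 in the fit reported. With the replicate block, that is with the replicate numbers pairing the samples, they were 873, 1741 and 2084, with DESeq2 1059, 1618 and 1942, on log2(FPKM + 1) 36, 345 and 463, on log2(FPKM + 0.1) 33, 352 and 437, and on log2(FPKM + 1) with at least 1 FPKM in 3 libraries 34, 389 and 482. A fit on only the groups compared gave 52 and 461 in the comparisons with siNTC, and no filter on low counts gave 184 in siTBX2. Leaving out each library gave 44 to 177, 402 to 654 and 469 to 918. Called members numbered 0, 1 and 2 in the fit reported and 3, 2 and 7 with the replicate block; for siTBX2-AS1 against siTBX2 the numbers pair the samples less clearly (correlations 0.0728 to 0.219), and the block added BST2, XAF1, PARP9, DTX3L and PARP14 to USP18 and SAMD9. DESeq2 called 1, 2 and 4 members. The 2 in siTBX2-AS1 were SAMD9 and RSAD2, and TAP1 had no adjusted p there. In siTBX2-AS1 against siNTC 0 members were called without a filter and with limma-voom. There 0 were also called with at least 1 CPM in 3 libraries and on the 2 groups, but neither of these fits tested TAP1. On the FPKM scales the 1 called member was RSAD2, lower, in place of TAP1. Against siTBX2, 1 was called on the 2 groups, on log2(FPKM + 0.1) and with at least 1 FPKM in 3 libraries. Leaving out each library gave 0 to 0, 0 to 1 and 0 to 2 members. The causes of these shifts were not tested. Depth limits the 10 untested members and OAS1, TAP1 and MX1, whose libraries hold 0 to 44 counts. It also limits other tested members with few counts per library, among them IRF7 (13 to 38), ISG15 (15 to 49) and XAF1 (19 to 61).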
